A study of Homo sapiens with 27 samples.

Results

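The comparison described here is that of cells given epidermal growth factor together with transforming growth factor beta (EGF+TGFB) with cells given TGFB alone, so that the only labelled difference is EGF. It rests on 6 of the 27 RNA-seq libraries of the series, 3 in each group, chosen by their treatment labels and not by any measured value. The cells were MCF10A, an established human line of breast epithelium that does not form tumours and needs growth factors to divide. They had been grown in medium containing 20 ng/ml EGF, serum, insulin, hydrocortisone and cholera toxin, were washed 6 h after seeding on collagen, and spent 18 h without growth factors. Fresh medium without growth factors then carried 10 ng/ml TGFB, with or without 10 ng/ml EGF, and RNA was collected after 24 h. All 6 libraries therefore come from cells that had been deprived of EGF and then exposed to TGFB. Cells that received EGF alone at the same dose, or phosphate-buffered saline (PBS) and no ligand, also 3 libraries each, serve as the reference for the response to EGF without TGFB.

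EGF binds the receptor tyrosine kinase EGFR and signals through the RAS-ERK and PI3K-AKT pathways. In epithelial cells ERK drives entry into the cell cycle, and AKT keeps FOXO transcription factors, which switch on genes of quiescence and starvation, out of the nucleus. TGFB binds serine/threonine kinase receptors that phosphorylate SMAD2 and SMAD3. In normal mammary epithelium it is known as a brake on the cell cycle and as an inducer of extracellular matrix and of the epithelial-mesenchymal transition (EMT), in which epithelial cells lose junctions and gain motility.

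The 6 libraries held 30.1 to 52.9 M counts (M, 1e6). Mitochondrial transcripts took 1.51 to 1.77% of the counts in EGF+TGFB and 2.24 to 2.74% in TGFB, and the 10 most abundant rows took 8.97 to 9.80% and 7.32 to 7.96%. Levels of single genes below are CPM, counts per 1e6 of the library. They are on library sizes with TMM scaling (the trimmed mean of M-values method), in the order of replicates 1, 2 and 3. CPM takes no account of transcript length, so levels are compared between libraries and not between genes. Replicate 3 of EGF+TGFB stood somewhat apart: in 34 of 34 DNA replication genes and 34 of 34 mitosis genes it was the highest of its group, and in 21 of 21 TGFB target genes the lowest. In part this order was shared with TGFB. There replicate 3 was the highest in 17 of 34 DNA replication and 27 of 34 mitosis genes, and the lowest in 11 of 21 target genes. Replicate 2 was the lowest in 27 mitosis genes in TGFB and 31 in EGF+TGFB. The labels do not say whether replicates were separate cultures, so the p-values measure the spread between these libraries, which may be technical. In bulk RNA, a change in the number of cells of a kind and a change in RNA per cell cannot be told apart. Sums over cell type markers, here and below, are CPM on library totals without TMM scaling. The TMM factors were 1.04 to 1.06 in TGFB and 0.93 to 0.97 in EGF+TGFB. Such sums are therefore on another scale than the levels of single genes. Summed levels of 7 basal mammary markers, among them KRT5 and TP63, were 14295 to 15980 CPM in TGFB and 11057 to 12102 CPM in EGF+TGFB. All 7 markers were tested, and in the test described below 2 were called higher and 3 lower, beside 32.7% and 34.1% of all rows. Of 8 luminal markers 6 were tested, with sums of 529 to 582 and 656 to 809.7 CPM. Among these 6, 3 were called higher and 2 lower, so neither sum stands for all its members. PGR was at 0 in all 6 libraries, and ELF5 was too low to test.

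EGF changed most of the transcriptome in the presence of TGFB. Of 16611 rows tested, 66.8% were called (edgeR quasi-likelihood F-test, Benjamini-Hochberg adjusted, threshold 0.05), 5433 rows (32.7%) higher and 5666 rows (34.1%) lower in EGF+TGFB. Such values are given below as edgeR adjusted p, and a gene is called where its value is under 0.05. At least 2-fold changes were fewer, with 1542 rows higher and 2266 lower. The median log2 fold change over all rows was -0.03. For 70.8% of rows the 3 libraries of one group did not overlap those of the other. These shares are the background against which the counts below are to be read: a list in which 66.8% of the genes were called would be like the table as a whole.

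**Figure D1:**
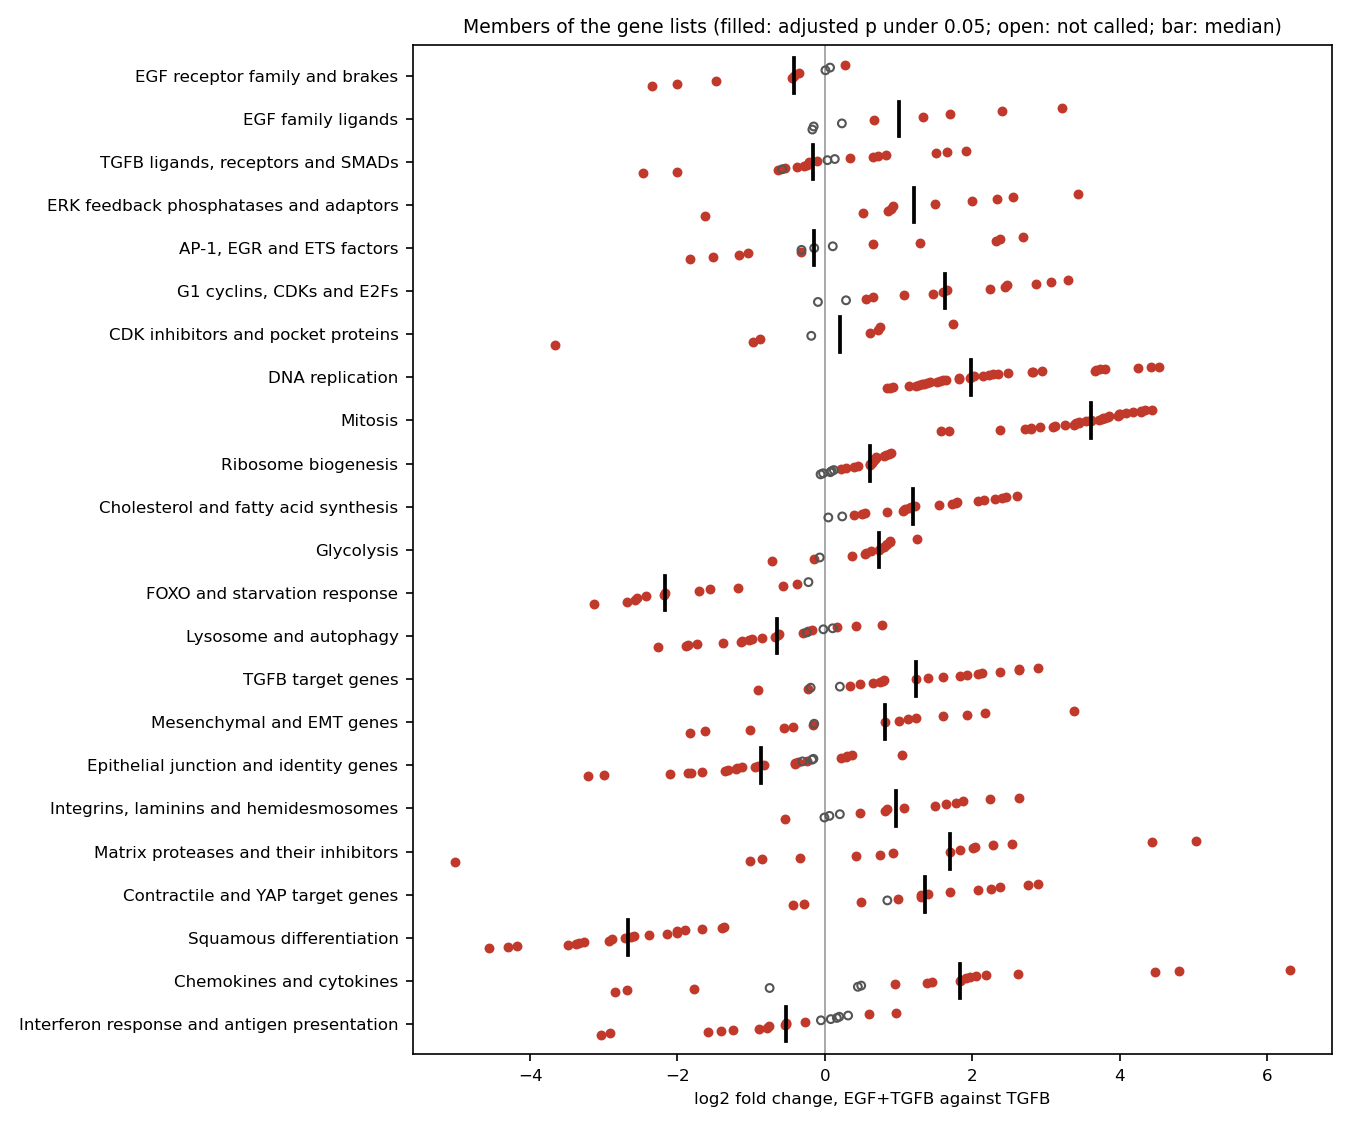
Log2 fold change, EGF+TGFB against TGFB (horizontal axis), of the tested members of 23 gene lists (vertical axis). Filled points passed an adjusted p under 0.05, open points did not, and vertical bars are list medians. Mitosis genes have a median of 3.62 and squamous differentiation genes one of -2.68, while all rows tested have a median of -0.03. The point farthest right is CXCL5, a fitted value against libraries with 0 counts.

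Genes of the EGF system itself moved in opposite directions, with receptors and their brakes mostly lower and ligands mostly higher. Among 9 tested genes of the receptor family and its brakes, 1 was called higher and 6 lower, beside 32.7% and 34.1% of all rows, with a median log2 fold change of -0.41. ERBB3, the kinase-impaired partner of ERBB2 and receptor for neuregulins, was measured at 125, 137 and 122 CPM in TGFB and 24.7, 27.6 and 22.97 CPM in EGF+TGFB. The groups did not overlap, and the log2 fold change was -2.34 ± 0.16 (SE; adjusted p = 2.35e-11, edgeR quasi-likelihood F-test, Benjamini-Hochberg adjusted). CBLB, a ubiquitin ligase that marks activated receptors for degradation, fell by 2.002 on the log2 scale, ERRFI1, a cytoplasmic inhibitor of EGFR, by 1.48, and ERBB2 by 0.45. CBL, the related ubiquitin ligase, was the 1 gene called higher, by 0.28. EGFR was measured at 541, 537 and 540.3 CPM in TGFB and 568, 557 and 574 CPM in EGF+TGFB, a log2 difference of 0.07 ± 0.05 (SE) that did not pass the test (edgeR adjusted p = 0.263). EGF without TGFB raised EGFR by 0.41 over PBS, and TGFB alone raised it by 0.46. ERBB4 was too low to test.

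Of 8 ligand genes, 5 were called higher and 0 lower, with a median of 1.001. AREG, which encodes amphiregulin, the main autocrine EGFR ligand of mammary epithelium, rose from 14.9, 13.8 and 15.8 CPM to 129, 109.9 and 176 CPM, with no overlap between groups. Its log2 fold change was 3.22 ± 0.24 (SE; edgeR adjusted p = 3.41e-10), against 4.70 ± 0.26 without TGFB (adjusted p of the difference = 0.00236). HBEGF, a membrane-anchored ligand that is shed by proteases, rose from 19.4, 19.95 and 23.7 to 64.5, 77.4 and 63.1 CPM. Here the effect was larger with TGFB than without it, 1.70 ± 0.10 against 0.58 ± 0.10, a difference of 1.13 ± 0.15 (adjusted p = 4.82e-06, edgeR quasi-likelihood F-test, Benjamini-Hochberg adjusted). TGFA showed the same order, with 1.33 against 0.70 (edgeR adjusted p of the difference = 5.29e-04), whereas the neuregulin NRG1 rose by 2.40 with TGFB and 3.38 without (adjusted p of the difference = 0.0224, lost without replicate 3 of TGFB, at -0.81, or replicate 2 or 3 of PBS, at -0.75 and -0.86). EREG, the gene of epiregulin, rose by 0.67 with TGFB and by 1.74 without (edgeR adjusted p of the difference = 0.0133). Its rise with TGFB was no longer called without replicate 3 of EGF+TGFB (0.43) or replicate 1 of TGFB (0.50). EPGN and BTC did not pass the test with TGFB, at 0.23 ± 0.16 and -0.15 ± 0.20 (SE). Leaving out 1 library of either group gave 0.13 to 0.36 for EPGN and -0.33 to -0.031 for BTC.

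Over all rows, 27.7% had an EGF effect that differed with and without TGFB at an adjusted p under 0.05, 12.3% of rows with a higher log2 fold change when TGFB was present and 15.4% with a lower one. Of these 4597 rows, 44.5% were of the higher kind. That split depended on the fit: leaving out 1 EGF+TGFB library gave 31.9 to 35.6%, fitting only the 4 groups of the contrast gave 34.02%, and testing without a filter on low counts gave 53.5%.

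Feedback genes of the ERK pathway, which encode phosphatases and adaptors that damp ERK signalling and are themselves ERK targets, were mostly higher at 24 h. Of 10 genes, 9 were called higher and 1 lower, with a median of 1.21. DUSP6, a phosphatase that removes the activating phosphates of ERK, was at 10.5, 10.1 and 10.5 CPM in TGFB and 62.6, 58.5 and 62.2 CPM in EGF+TGFB. SPRY4, a Sprouty adaptor that inhibits receptor signalling to RAS, rose from 8.74, 7.96 and 7.74 to 92.03, 84.6 and 88.6 CPM. DUSP4 rose from 59.8, 59.4 and 52.6 to 307, 291 and 269 CPM. In none of these did the groups overlap, and the log2 fold changes were 2.56 ± 0.19, 3.44 ± 0.19 and 2.34 ± 0.15 (SE). DUSP6 responded less than it did without TGFB (4.16 ± 0.20; difference -1.60 ± 0.27, edgeR adjusted p = 1.47e-04). TGFB alone had raised DUSP6 by 0.95 over PBS. SPRY1 went against its family: it was at 1.83, 1.58 and 1.61 CPM in TGFB and 0.550, 0.385 and 0.720 CPM in EGF+TGFB, whereas EGF without TGFB raised it from 1.77, 1.55 and 1.52 to 2.12, 2.58 and 2.84 CPM. Its difference in effect was -2.27 ± 0.36 (adjusted p = 5.44e-05, edgeR quasi-likelihood F-test, Benjamini-Hochberg adjusted), at low levels of 0.385 to 2.84 CPM.

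Of 13 transcription factors downstream of ERK, 5 were called higher and 5 lower, shares near the 32.7% and 34.1% of all rows. Their median was -0.14, or -0.24 without replicate 3 of EGF+TGFB and -0.088 and -0.084 without its replicates 1 and 2. The ETS factors ETV4 and ETV5 rose by 2.69 and 2.32 on the log2 scale. FOSL1, the AP-1 subunit FRA1 that accumulates under sustained ERK activity, rose from 13.4, 11.03 and 11.3 to 60.6, 56.5 and 67.9 CPM. The immediate-early genes FOS, FOSB and EGR3, whose transcription peaks within the first hours of stimulation, fell by 1.05, 1.51 and 1.83. FOSL2, another AP-1 subunit, fell from 445, 464 and 456 to 209.6, 214 and 185 CPM, and by more without TGFB (-1.17 against -2.19, edgeR adjusted p of the difference = 7.74e-07). ETV5 rose by 4.08 without TGFB, a difference of -1.77 ± 0.25 (edgeR adjusted p = 2.38e-05), and TGFB alone raised ETV5 by 1.76 over PBS.

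Among 20 genes of TGFB signalling, 7 were called higher and 10 lower, beside 32.7% and 34.1% of all rows, with a median of -0.17, or -0.097 without replicate 3 of EGF+TGFB. Both signalling receptors were higher. TGFBR1 was at 84.4, 90.9 and 90.3 CPM in TGFB and 166, 166 and 139 CPM in EGF+TGFB. TGFBR2 was at 211, 192 and 184 CPM in TGFB and 339, 318 and 315 CPM in EGF+TGFB. Groups did not overlap in either gene, and the log2 fold changes were 0.83 ± 0.06 and 0.73 ± 0.07 (SE). The co-receptors parted: ENG, the gene of endoglin, rose by 1.51, and TGFBR3, the gene of betaglycan, which presents TGFB to the receptors, fell from 25.5, 28.5 and 29.3 to 6.88, 6.97 and 6.75 CPM. TGFB2, which encodes a further TGFB isoform, rose from 7.10, 7.98 and 7.49 to 27.4, 27.1 and 16.8 CPM, where replicate 3 was the lowest of the EGF+TGFB libraries and still above TGFB. Of the effectors, SMAD4 fell by 0.28, and SMAD3 was not called (0.13). SMAD2 was called lower by 0.11, and lost the call without replicate 2 or 3 of EGF+TGFB (-0.12 and -0.05) or replicate 2 of TGFB (-0.08). The inhibitors differed among themselves. SMAD6 fell by 2.47, and the repressors SKI and TGIF1 and the decoy receptor BAMBI by 0.24, 0.37 and 0.55, while SMAD7 rose by 0.35. On the same side, SMURF2, a ubiquitin ligase for SMADs and receptors, rose from 41.3, 38.2 and 38.7 to 154, 147 and 146 CPM.

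The cell cycle genes were higher throughout. All 34 DNA replication genes and all 34 mitosis genes were called higher, with median log2 fold changes of 1.98 and 3.62, and in all 68 genes the groups did not overlap, beside 70.8% of all rows. Of 14 cyclins, cyclin-dependent kinases (CDKs) and E2F factors of the G1 phase, 12 were called higher and 0 lower, with a median of 1.64. CCND1, the gene of cyclin D1, which carries the mitogen signal to CDK4 and CDK6, rose from 49.99, 48.5 and 52.8 to 233, 228 and 257 CPM. Its log2 fold change was 2.25 ± 0.14 (adjusted p = 3.29e-12, edgeR quasi-likelihood F-test, Benjamini-Hochberg adjusted; error as SE). Its effect without TGFB was 2.44 ± 0.14, and the difference of -0.20 ± 0.18 did not pass the test (edgeR adjusted p = 0.485). CDK6 rose by 1.66, and CDK4 was at 56.8, 58.1 and 58.8 CPM in TGFB and 49.5, 48.7 and 64.96 CPM in EGF+TGFB, overlapping and not called, though called lower without replicate 3 of EGF+TGFB (-0.22). Without TGFB, EGF raised CDK4 by 0.79, a difference of -0.89 ± 0.11 (edgeR adjusted p = 3.01e-06). E2F1 and CCNE2, the genes of the S-phase activator E2F1 and of cyclin E2, rose by 2.86 and 3.07, and E2F7 and E2F8, the late repressors of the same family, by 3.30 and 2.48.

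Brakes on the cell cycle did not move as a group. Of 8 tested CDK inhibitors and pocket proteins, 4 were called higher and 3 lower, beside 32.7% and 34.1% of all rows, with a median of 0.21. CDKN1C, the gene of the CDK inhibitor p57, fell from 58.3, 49.5 and 51.3 to 3.66, 3.95 and 5.14 CPM, or by 3.66 ± 0.39 on the log2 scale (SE; edgeR adjusted p = 6.39e-08). CDKN1C has a further tested row in the table, and the sum of both gave -3.63. CDKN1B, the gene of p27, fell from 31.9, 38.1 and 39.9 to 19.5, 18.1 and 18.3 CPM, and RBL2, the gene of the pocket protein p130 of quiescent cells, fell by 0.87. Its relative of cycling cells, RBL1, the gene of p107, rose by 1.74. CDKN1A, the gene of p21, was at 527, 556 and 483 CPM in TGFB and 464, 518 and 395 CPM in EGF+TGFB, overlapping, with a log2 difference of -0.18 ± 0.12 (edgeR adjusted p = 0.184), or -0.072 without replicate 3 of EGF+TGFB. EGF without TGFB lowered CDKN1A by 1.05, so that the effects differed by 0.86 ± 0.17 (adjusted p = 6.42e-04, edgeR quasi-likelihood F-test, Benjamini-Hochberg adjusted). CDKN2B, the gene of p15 and a textbook TGFB target in epithelium, and CDKN2A held 0 counts in all 27 libraries. MCF10A is known to lack this locus.

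MKI67, the gene of the proliferation marker Ki-67 (ENSG00000148773, chromosome 10, 128096659 to 128126423, minus strand, GRCh38), was at 14.2, 11.7 and 15.9 CPM in TGFB and 240.5, 219 and 358 CPM in EGF+TGFB. RRM2, the small subunit of ribonucleotide reductase, which supplies the deoxynucleotides for DNA synthesis (ENSG00000171848, chromosome 2, 10120698 to 10211725, plus strand), was at 7.31, 5.44 and 7.74 and 148, 131 and 194 CPM. The lowest EGF+TGFB library was far above the highest TGFB library in both. Log2 fold changes were 4.29 ± 0.26 and 4.53 ± 0.25 (SE; edgeR adjusted p = 7.95e-12 and 2.31e-12). CDC45 and MCM10, which activate the replicative helicase, rose by 4.25 and 4.43, and CDC6, which loads it at origins, by 3.81. NUSAP1, a microtubule-bundling protein of the spindle, AURKB, the kinase of the chromosomal passenger complex, and NUF2, a kinetochore subunit, rose by 4.44, 4.34 and 4.29. The smallest changes among members of at least 10 CPM were those of POLE, the catalytic subunit of DNA polymerase epsilon, at 0.85, and of PTTG1, the gene of securin, at 1.57. Without replicate 3 of EGF+TGFB the list medians were 1.81 for DNA replication and 3.44 for mitosis.

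The EGF effect on many of these genes was smaller when TGFB was present. Without TGFB the medians were 2.996 for DNA replication and 4.11 for mitosis, and the EGF effect was called lower with TGFB for 27 of 34 and 9 of 34 genes, beside 15.4% of all rows. For DNA replication the count was 24 to 31 when any 1 library of the 4 groups was left out. For mitosis it was 2 to 13: 2 without replicate 2 of EGF+TGFB, replicate 3 of TGFB, replicate 3 of EGF or replicate 2 of PBS, and 13 without replicate 3 of EGF+TGFB. The median difference in the full fit was -0.96 for DNA replication and -0.51 for mitosis. The latter was -0.78 without replicate 3 of EGF+TGFB and -0.35 without replicate 2 of PBS. MCM10 was at 53.02 ± 2.86 CPM with EGF alone (SD, n = 3) and 22.6 ± 5.43 with both ligands, with a difference in effect of -1.37 ± 0.49 (adjusted p = 0.044, edgeR quasi-likelihood F-test, Benjamini-Hochberg adjusted). That call held without replicate 3 of EGF+TGFB and was lost without any other 1 library, at -1.28 to -1.49. MKI67 reached 479, 521 and 557 CPM with EGF alone, and its difference in effect, -0.30 ± 0.33, did not pass the test (edgeR adjusted p = 0.553). TGFB alone had moved few of the replication genes, 1 higher and 2 lower than in PBS, beside 18.9% and 14.7% of all rows, with a median of -0.07. Of the 34 mitosis genes, 0 were called higher and 9 lower in TGFB than in PBS, with a median of -0.41.

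**Figure D2:**
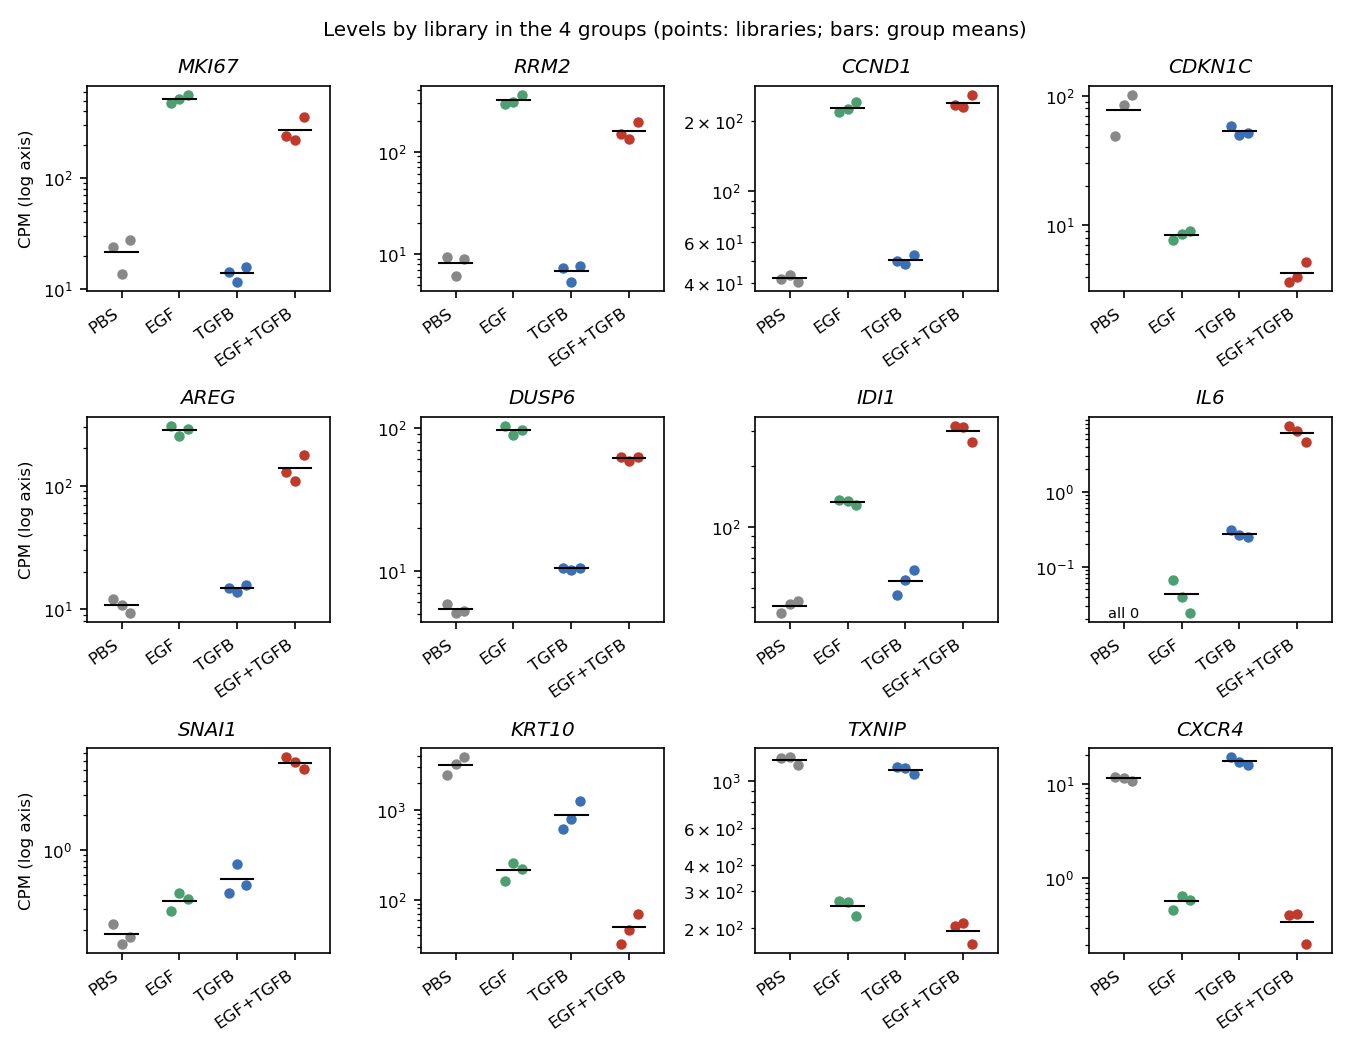
CPM on a logarithmic axis for 12 genes in PBS, EGF, TGFB and EGF+TGFB. Each point is 1 library and each bar a group mean over 3 libraries, and groups at 0 are marked in words. SNAI1 and IL6 are high in EGF+TGFB alone, at 5.11 to 6.44 and 4.66 to 7.48 CPM, while CDKN1C, TXNIP and CXCR4 are low in both groups that had EGF.

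Promoter sequences of genes that rose together show which textbook cell cycle elements they hold. The windows are the 250 bases before each RefSeq start (GRCh38.p14), with a match for 30 of 34 DNA replication genes (38 starts) and 28 of 34 mitosis genes (32 starts). An E2F site, searched as TTTCCCGC or TTTGGCGC on both strands, was in 28.9% of the replication promoters and 6.25% of the mitosis promoters, against 1.93% of 35116 promoters of the whole table. The cell cycle homology region, searched as TTTGAA, which the MuvB complex binds, was in 53.1% of the mitosis promoters and 2.63% of the replication promoters, against 13.3% of all. CCAAT boxes, bound by NF-Y, were in 78.1% and 60.5%, against 32.0% of all. They were not particular to these 2 lists, being in 53.8% of 13 promoters of the transcription factors downstream of ERK. For the ERK feedback genes (13 promoters) and the TGFB target genes (23 promoters) the shares were 23.1% and 26.1%. The AP-1 site TGACTCA was in none of the promoters of the replication and mitosis lists (4.20% of all). The palindromic SMAD element GTCTAGAC was in none of those of the TGFB target genes (0.182% of all). A match describes letters in a window, not a bound site, and a missing match says only that these letters are not there. The promoters of MKI67, which holds cell cycle homology regions and CCAAT boxes, of NUSAP1, with an E2F site and CCAAT boxes, of CDC6, with CCAAT boxes and no other motif searched, and of POLE, with an E2F site and CCAAT boxes and a far smaller change, are given 5′ to 3′ on the gene's strand, with the matched motifs in capitals on either strand. They lie at chr10:128126424-128126673 (minus strand, MKI67), chr15:41332631-41332880 (plus strand, NUSAP1), chr17:40287629-40287878 (plus strand, CDC6) and chr12:132687343-132687592 (minus strand, POLE). In MKI67 the second TTTGAA runs into an ATTGG, the reverse complement of CCAAT, and the capitals there cover both. In POLE a CCAAT and an ATTGG overlap.
MKI67: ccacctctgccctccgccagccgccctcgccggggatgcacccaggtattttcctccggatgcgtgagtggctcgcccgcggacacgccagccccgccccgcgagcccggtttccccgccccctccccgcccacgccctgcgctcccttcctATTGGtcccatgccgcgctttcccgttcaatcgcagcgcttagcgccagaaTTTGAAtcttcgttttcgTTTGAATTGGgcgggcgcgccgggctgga
NUSAP1: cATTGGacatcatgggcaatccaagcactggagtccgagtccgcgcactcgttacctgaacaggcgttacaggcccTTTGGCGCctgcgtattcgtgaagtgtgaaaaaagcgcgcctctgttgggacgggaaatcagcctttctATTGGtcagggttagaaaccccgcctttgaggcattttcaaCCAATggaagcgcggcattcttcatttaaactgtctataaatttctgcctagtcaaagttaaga
CDC6: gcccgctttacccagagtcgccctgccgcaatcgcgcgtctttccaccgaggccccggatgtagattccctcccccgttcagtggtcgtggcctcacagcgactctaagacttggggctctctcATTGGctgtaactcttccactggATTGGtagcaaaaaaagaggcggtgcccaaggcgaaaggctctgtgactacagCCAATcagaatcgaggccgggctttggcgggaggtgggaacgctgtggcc
POLE: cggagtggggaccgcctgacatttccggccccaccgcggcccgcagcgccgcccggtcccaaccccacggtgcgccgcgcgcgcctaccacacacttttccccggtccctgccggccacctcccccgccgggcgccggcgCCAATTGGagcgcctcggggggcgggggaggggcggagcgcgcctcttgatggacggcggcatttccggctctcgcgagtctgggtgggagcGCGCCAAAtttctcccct

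Genes of ribosome, lipid and sugar metabolism were mostly higher. Of 21 ribosome biogenesis genes 16 were called higher and 0 lower, with small changes (median 0.62), such as NOP56 and NOP58, core proteins of box C/D particles, at 0.89 and 0.87. Their median without TGFB was 1.05, and the EGF effect was called lower with TGFB for 18 of 21, beside 15.4% of all rows, and for 14 to 21 when any 1 library was left out. Of 22 tested cholesterol and fatty acid synthesis genes 20 were called higher and 0 lower, with a median of 1.19. IDI1, an isomerase of the mevalonate pathway, which makes sterol precursors (ENSG00000067064, chromosome 10, 1039152 to 1049119, minus strand), was at 46.3, 54.6 and 60.9 CPM in TGFB and 315, 313 and 265 CPM in EGF+TGFB, with no overlap. Its log2 fold change was 2.46 ± 0.12 (SE; adjusted p = 4.90e-14), against 1.70 ± 0.12 without TGFB (adjusted p of the difference = 0.00104, edgeR quasi-likelihood F-test, Benjamini-Hochberg adjusted). HMGCS1, of the same pathway, and INSIG1, of its sterol control, rose by 2.31 and 2.40. This list went the other way from the replication genes in its dependence on TGFB: the EGF effect was called higher with TGFB for 13 of 22 genes and lower for 0, beside 12.3% higher over all rows (12 to 14 genes when any 1 library was left out), with a median difference of 0.50.

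Of 15 glycolysis genes 12 were called higher and 2 lower, with a median of 0.74. SLC16A3, the lactate exporter MCT4, and PFKP, a phosphofructokinase, rose by 1.24 and 0.89. SLC2A1, the glucose transporter GLUT1, was among the 2 that fell, from 146, 149 and 160.2 to 86.9, 99.8 and 90.4 CPM, and HK1, a hexokinase, was called lower by 0.14, though not without replicate 1 of EGF+TGFB (-0.11).

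Most genes of quiescence and starvation fell. Of 13 genes of the FOXO and starvation list 0 were called higher and 12 lower, with a median of -2.17. TXNIP, which binds thioredoxin and restrains glucose uptake, fell from 1164, 1159 and 1083 to 203, 209.5 and 168 CPM. KLF9, a zinc finger factor induced by glucocorticoids, fell from 72.1, 76.7 and 71.3 to 8.89, 8.02 and 8.26 CPM. FOXO1 itself fell from 244, 249 and 233 to 40.5, 36.9 and 35.8 CPM. No library of either group overlapped the other for these 3 genes, and their log2 fold changes were -2.55 ± 0.20, -3.13 ± 0.15 and -2.68 ± 0.12 (SE). BCL6, a transcriptional repressor under FOXO control, fell by 2.58, and GADD45A, a stress gene, was not called (-0.22), though called without replicate 2 of EGF+TGFB (-0.30) or replicate 3 of TGFB (-0.29). Of 22 lysosome and autophagy genes 16 were called lower and 3 higher, with a median of -0.65. The proteases CTSD, CTSF and CTSH fell by 1.85, 2.26 and 1.73, and the glycogen-degrading enzyme GAA by 1.88. Among the 3 called higher were NPC1, which exports cholesterol from lysosomes, at 0.42, and GLA, which cleaves sugars from lipids, at 0.78.

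EGF raised most TGFB target genes above the level that TGFB alone gave. Of 21 target genes 17 were called higher, 2 lower and 2 not called, with a median of 1.23. All 21 were also called higher in TGFB than in PBS, beside 18.9% of all rows, with a median of 2.65, and that comparison shares the TGFB libraries with the present one, so the values are only set side by side. The list was chosen with earlier results of these data known, so the count of 21 is a description and not a test. In EGF without TGFB, 16 were called higher and 2 lower than in PBS, beside 33.8% and 37% of all rows, with a median of 2.06. TAGLN, the actin-binding protein transgelin (ENSG00000149591, chromosome 11, 117199370 to 117207464, plus strand), was at 24.3, 20.6 and 20.5 CPM in PBS, 197, 215 and 158 in EGF, 128, 147 and 149 in TGFB and 1129, 1209 and 803 in EGF+TGFB. The EGF+TGFB libraries were the highest of the 4 groups, and the EGF effect was 2.89 ± 0.20 with TGFB and 3.12 ± 0.20 without (SE; adjusted p of the difference = 0.573, edgeR quasi-likelihood F-test, Benjamini-Hochberg adjusted). TNC, the matrix glycoprotein tenascin-C, rose from 169, 181 and 167 to 1164, 1208 and 827 CPM. The gene of connective tissue growth factor, CCN2, rose from 29.1, 27.2 and 28.3 to 153, 156 and 128 CPM. In all 3 genes even the lowest EGF+TGFB library, replicate 3, was above every TGFB library. TNC and CCN2 responded less with TGFB than without, by -0.96 ± 0.23 and -1.68 ± 0.18 on the log2 scale (edgeR adjusted p = 0.00335 and 7.51e-07). For 10 of the 21 genes the EGF effect was called lower with TGFB and for 4 higher, beside 15.4% and 12.3% of all rows. With any 1 library left out the counts were 9 to 10 and 2 to 4, the 2 without replicate 2 of EGF+TGFB. The median difference was -0.52. The difference in effect also uses the TGFB and PBS libraries, so these counts are likewise a description and not a test.

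Exceptions among the targets were COL7A1, the anchoring fibril collagen, which fell from 316, 305 and 313 to 173, 167 and 157 CPM, and SKIL, a repressor of SMADs, which fell by 0.23. The call of SKIL was lost without replicate 3 of EGF+TGFB (-0.14). TGFBI, a secreted matrix protein, was at 14386, 13248 and 15705 CPM in TGFB and 12777, 13538 and 11601 CPM in EGF+TGFB, overlapping and not called (edgeR adjusted p = 0.067), though called lower without replicate 2 of EGF+TGFB (-0.24) or replicate 2 of TGFB (-0.25). ITGB6, an integrin subunit that releases active TGFB, was not called (0.20), though called higher without replicate 3 of EGF+TGFB (0.35). FN1, the gene of fibronectin, was chosen for mention after its values were seen: it rose by 1.61 ± 0.18 (SE). Without replicate 3 of EGF+TGFB, which was the lowest of its group in all 21 genes, the median of the list was 1.28.

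**Figure D3:**
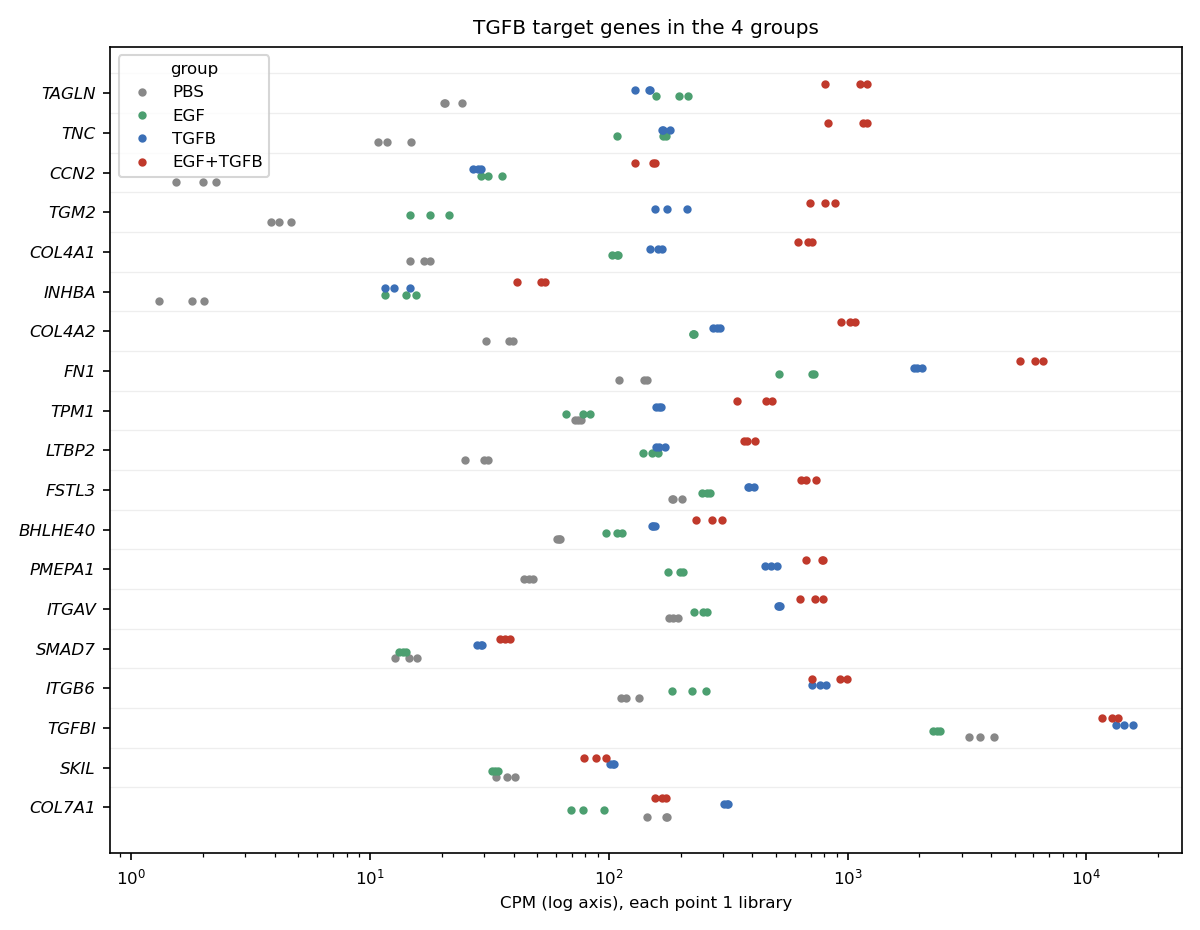
CPM on a logarithmic axis for 19 of the 21 TGFB target genes, ordered by their log2 fold change between EGF+TGFB and TGFB. Each point is 1 library, coloured by group. For TAGLN and TNC, at the top, EGF+TGFB lies above the other 3 groups, and for COL7A1, at the bottom, TGFB is the highest.

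Contractile and adhesion genes, which share members with the target list, such as CCN2, TAGLN, TPM1, ITGAV and ITGB6, were mostly higher. Of 14 tested contractile and YAP target genes 11 were called higher and 2 lower (median 1.36). CCN1, a matricellular protein, rose from 29.1, 28.03 and 30.3 to 196, 209 and 184 CPM. MYL9, a regulatory myosin light chain, rose from 39.7, 43.4 and 44.9 to 225, 229 and 159 CPM. ACTA2, the smooth muscle actin of myofibroblasts, was called lower, at 14.6, 11.7 and 10.4 CPM in TGFB and 9.77, 9.63 and 7.68 CPM in EGF+TGFB, a call that was lost without replicate 3 of EGF+TGFB (-0.32) or replicate 1 of TGFB (-0.29). AXL, a receptor tyrosine kinase often high in mesenchymal cells, was called lower by 0.29 with overlapping libraries. Of 14 integrin, laminin and hemidesmosome genes 10 were called higher and 1 lower (median 0.96). LAMA3 and LAMB3, chains of laminin 332, rose by 2.25 and 1.88, and ITGA3, an integrin subunit that binds it, by 1.78. DST, a plakin that ties hemidesmosomes to keratin filaments, fell by 0.54.

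The EMT list divided. Of 15 tested mesenchymal genes 8 were called higher and 6 lower, beside 32.7% and 34.1% of all rows, with a median of 0.82. SNAI1, the EMT repressor Snail (ENSG00000124216, chromosome 20, 49982980 to 49988886, plus strand), was at 0.225, 0.151 and 0.171 CPM in PBS, 0.290, 0.419 and 0.367 in EGF, 0.417, 0.743 and 0.492 in TGFB and 6.44, 5.84 and 5.11 in EGF+TGFB. The 3 EGF+TGFB libraries stood apart from the 9 others, which were at low levels of 0.151 to 0.743 CPM. The EGF effect was 3.38 ± 0.18 with TGFB and 0.98 ± 0.33 without, a difference of 2.39 ± 0.42 (SE; adjusted p = 1.76e-04, edgeR quasi-likelihood F-test, Benjamini-Hochberg adjusted). CDH2, the gene of N-cadherin, rose from 20.4, 22.1 and 23.02 to 105, 102 and 88.5 CPM, with no overlap and a log2 fold change of 2.17 ± 0.09, close to the 2.31 ± 0.10 measured without TGFB (difference -0.13 ± 0.13, edgeR adjusted p = 0.516). ZEB1, another EMT repressor, rose from 2.84, 3.69 and 2.84 to 13.1, 11.8 and 10.9 CPM. The related ZEB2 fell by 1.63, TWIST1 fell from 13.4, 13.7 and 11.9 to 3.14, 3.20 and 4.73 CPM, and SNAI2 was called lower by 0.16. SNAI2 lost its call without replicate 1 or 2 of EGF+TGFB (-0.17 and -0.12) or replicate 1 of TGFB (-0.11). COL1A1 and MMP2, stromal genes that TGFB alone had raised by 1.52 and 2.33 over PBS, fell by 0.55 and 1.02 when EGF was added. Summed fibroblast markers, 5 of 7 tested, were 214 to 222 CPM in TGFB and 74.0 to 90.3 CPM in EGF+TGFB, with PDGFRA and COL3A1 too low to test. Most of that sum was COL1A1 and DCN, the small proteoglycan decorin, which fell from 95.02, 97.9 and 95.6 to 11.8, 11.7 and 9.60 CPM. COL1A1 and MMP2 are also genes that epithelial cells in EMT express, and the part of other cell types in these results was not tested.

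Epithelial junction and identity genes were mostly lower, 18 of 26 tested, with 5 higher and a median of -0.87. CDH1, the gene of E-cadherin, was at 668, 675 and 624 CPM in TGFB and 607, 669 and 491 CPM in EGF+TGFB, overlapping, with a log2 difference of -0.16 ± 0.13 (edgeR adjusted p = 0.289). It was -0.25 without replicate 2 and -0.024 without replicate 3 of EGF+TGFB. PPL, the cornified envelope protein periplakin, fell from 546, 627 and 610.2 to 67.2, 83.95 and 72.5 CPM. TJP3, the tight junction scaffold ZO-3, fell from 26.8, 29.1 and 26.98 to 2.12, 3.28 and 3.53 CPM. The desmosomal genes DSG3 and PKP1 fell by 1.86 and 2.10. CLDN1, the gene of the tight junction protein claudin-1, rose from 96.3, 106 and 88.3 to 214, 225 and 161 CPM, and DSG2 and PKP3 rose by 0.30 and 0.37.

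Squamous differentiation genes were lower throughout. All 20 tested were called lower, beside 34.1% of all rows, with a median of -2.68. No gene had overlapping groups, beside 70.8% of all rows without overlap. TGM3 and LORICRIN were too low to test. KRT10, a keratin of suprabasal keratinocytes (ENSG00000186395, chromosome 17, 40818117 to 40822614, minus strand), was at 608, 797 and 1237 CPM in TGFB and 32.4, 45.9 and 68.7 CPM in EGF+TGFB. Its partner KRT1 was at 4.64, 6.86 and 14.1 and 0.0550, 0.142 and 1.06 CPM. The libraries of each group were widely spread, but the highest EGF+TGFB library was below the lowest TGFB library in both genes. Log2 fold changes were -4.17 ± 0.29 and -4.56 ± 0.55 (SE; edgeR adjusted p = 8.58e-11 and 3.15e-07). CALML5, a calcium-binding protein of differentiating keratinocytes, fell from 77.8, 69.3 and 79.3 to 3.71, 4.19 and 3.53 CPM, and more than without TGFB (-1.27 ± 0.26, edgeR adjusted p = 8.73e-04). SPRR2A fell by 3.48 and SPRR2D, the least changed, by 1.37, both small proline-rich proteins of the cornified envelope with near-identical relatives, so that their reads are uncertain. Replicate 3 was the highest library for 17 of 20 genes in TGFB and 14 of 20 in EGF+TGFB. The list median was -3.03 without replicate 3 of EGF+TGFB and -2.33 without replicate 3 of TGFB. EGF alone lowered 18 of the 20 below PBS, beside 37% of all rows, with a median of -1.77. The effect was called lower with TGFB for 7, beside 15.4% of all rows, or for 7 to 10 when any 1 library was left out. KRT15, a keratin of basal cells and a marker on the basal list, fell from 388, 421 and 353 to 21.3, 23.04 and 22.04 CPM, while KRT14, another basal keratin, rose by 0.48.

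Secreted proteases and cytokines were among the genes that rose most. Of 15 matrix protease and inhibitor genes 11 were called higher and 4 lower (median 1.70). MMP10, the gene of stromelysin 2, rose from 1.07, 0.983 and 1.18 to 31.97, 20.9 and 17.002 CPM. SERPINE2, an inhibitor of thrombin and plasminogen activators, rose from 26.3, 20.6 and 22.2 to 149, 131 and 123 CPM. MMP13, a collagenase, went the other way: it was at 0.749, 0.947 and 0.611 CPM in PBS, 0.201, 0.360 and 0.342 in EGF, 15.99, 13.5 and 14.2 in TGFB and 0.660, 0.466 and 0.171 in EGF+TGFB. TGFB alone thus held the 3 highest libraries, and the log2 fold change on adding EGF was -5.02 ± 0.49 (adjusted p = 7.32e-09, edgeR quasi-likelihood F-test, Benjamini-Hochberg adjusted). TIMP3 and TIMP2, inhibitors of metalloproteinases, fell by 0.86 and 0.34, the latter by 0.22 without replicate 3 of EGF+TGFB.

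Of 19 tested chemokine and cytokine genes 13 were called higher and 3 lower, with a median of 1.84. IL6, the gene of interleukin-6, held 0 counts in PBS, was at 0.0669, 0.0400 and 0.0244 CPM in EGF, 0.313, 0.264 and 0.246 CPM in TGFB and 7.48, 6.38 and 4.66 CPM in EGF+TGFB. The groups did not overlap, and the log2 fold change between the last 2 was 4.48 ± 0.27 (SE; edgeR adjusted p = 2.26e-12). No fold against PBS is given for IL6, since all 3 PBS libraries were at 0. CSF3, the gene of granulocyte colony-stimulating factor, rose from 0.365, 0.456 and 0.328 to 11.4, 9.56 and 11.8 CPM. CXCL5, a neutrophil chemokine, had 0 counts over the 3 TGFB libraries and 28 over the 3 EGF+TGFB libraries, at least 8.52-fold higher if 3 counts over the group are taken as the limit that a count of 0 allows. The list's median is the same with CXCL5 at that bound. CXCL1, a related chemokine with near-identical relatives, rose by 1.38. IL1RN, the interleukin-1 receptor antagonist, fell from 40.02, 52.8 and 76.4 to 5.34, 7.64 and 13.9 CPM, and TSLP fell by 1.78 at under 1 CPM. Of 19 interferon response and antigen presentation genes 12 were called lower and 2 higher (median -0.53), or 10 to 12 lower and 1 to 3 higher when any 1 library was left out, with 1 higher without replicate 3 of TGFB and 3 without replicate 1 of EGF+TGFB. IFIT1 and IFIT2, antiviral RNA-binding proteins, fell by 2.92 and 3.04, OAS1, an activator of RNase L, by 1.41, and its relative OAS3 rose by 0.96. Summed immune cell markers, 2 of 6 tested, were 36.8 to 46.3 CPM in TGFB and 27.5 to 30.9 CPM in EGF+TGFB. The 2 tested markers moved in opposite directions, 1 called higher (0.28) and 1 lower (-3.06). PTPRC, CD3E, MS4A1 and LYZ were too low to test, with MS4A1 at 0 in all 6 libraries.

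The 12 genes that fell most and the 12 that rose most, among called rows with a mean of at least 10 CPM in either group and no overlap, included members of the lists and others. PPARGC1A, the coactivator PGC-1alpha of mitochondrial biogenesis, fell from 15.2, 16.2 and 16.6 to 0.165, 0.284 and 0.171 CPM, the lowest fold change of this set at -6.19 ± 0.28 (SE; edgeR adjusted p = 4.59e-15). CXCR4, the receptor of the chemokine CXCL12, fell from 18.9, 17.001 and 15.6 to 0.413, 0.426 and 0.206 CPM. BMF, a BH3-only protein that promotes apoptosis, fell from 144, 156 and 149 to 4.07, 3.32 and 2.26 CPM. In each of these genes every EGF+TGFB library lay far below every TGFB library. Log2 fold changes of the secreted factors CXCL14, a chemokine, ANGPT1, the ligand angiopoietin-1, and MMP7, the protease matrilysin, were -5.91, -5.64 and -5.24. Those of the membrane proteins SEMA6D, a semaphorin, and VIPR1, a receptor of vasoactive intestinal peptide, were -5.55 and -4.99. ASPRV1, a protease of the stratum granulosum, ATOH8, a helix-loop-helix transcription factor, and GPX2, a glutathione peroxidase, were at -5.15, -5.14 and -4.98, and MMP13 completed the 12.

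TFPI2, an inhibitor of serine proteases in the matrix, rose from 0.626, 0.504 and 0.328 to 16.7, 13.5 and 15.4 CPM. INSC, which orients the mitotic spindle, rose from 1.98, 1.68 and 1.67 to 57.8, 50.8 and 54.2 CPM. COL6A3, a chain of collagen VI, rose from 2.79, 2.01 and 2.90 to 70.6, 58.3 and 67.4 CPM. All 3 had separate groups, with log2 fold changes of 4.95 ± 0.27, 4.93 ± 0.19 and 4.68 ± 0.22 (SE). CCBE1, which aids the processing of lymphatic growth factor VEGFC, RPE65, the retinoid isomerase of the visual cycle, and SHCBP1, which binds the adaptor SHC1, rose by 4.74, 4.45 and 4.46. The others were CSF3, MMP10, RRM2, NUSAP1 and MCM10, described above, and RPSAP52, whose 5.24 is uncertain because it is a ribosomal protein pseudogene that can share reads with near-identical copies, and lies antisense to HMGA2. KDR, the receptor VEGFR2 and a marker on the endothelial list, was lower by 4.91. The endothelial sum, 3 of 4 markers tested and CDH5 too low to test, was 17.7 to 20.6 CPM in TGFB and 0.730 to 1.19 CPM in EGF+TGFB.

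The EGF response with TGFB broadly followed that without it. Across all 16611 rows, log2 fold changes of EGF+TGFB against TGFB and of EGF against PBS, which share no library, had a Pearson correlation of 0.810. Genes are not independent replicates, and the value is a description. Of 9554 rows called in both comparisons 9258 had the same direction (96.9%). The rows called in both made up 86.1% of the calls with TGFB and 81.2% of those without, and 1545 rows were called with TGFB only, of which 627 also had a called difference between the effects. In 296 rows called in both comparisons the direction was opposite, 189 raised with TGFB and lowered without it and 107 the reverse, and 7 of them moved at least 2-fold both ways.

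**Figure D4:**
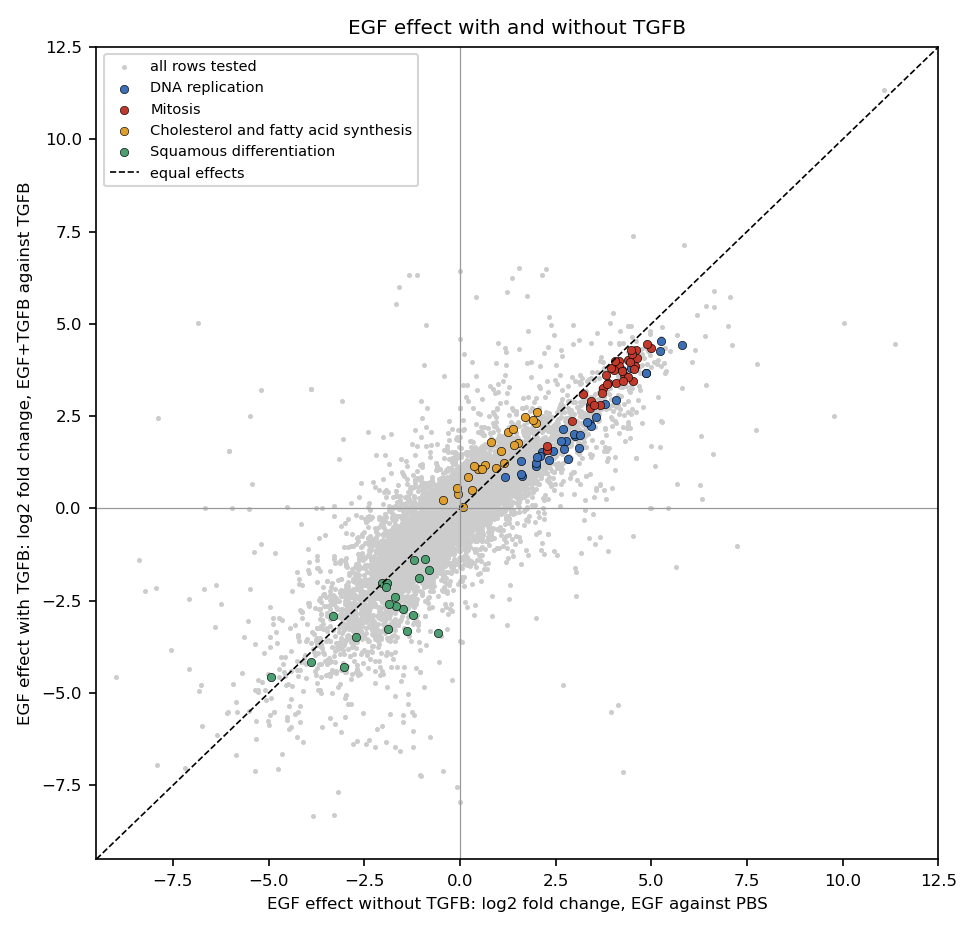
Log2 fold change for EGF against PBS (horizontal axis) and for EGF+TGFB against TGFB (vertical axis) for all 16611 rows tested (grey) and for the members of 4 lists. The dashed line marks equal effects. DNA replication genes lie below the line and cholesterol synthesis genes mostly above it, with median differences of -0.96 and 0.50.

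The largest differences in EGF effect, among genes with a called difference and at least 10 CPM in any of the 4 groups, gave 6 genes with a lower and 6 with a higher log2 effect when TGFB was present. SORL1, a sorting receptor of endosomes, was at 17.5, 15.1 and 20.9 CPM in PBS, 19.04, 20.8 and 21.3 in EGF, 150.05, 138 and 144 in TGFB and 23.1, 21.7 and 23.7 in EGF+TGFB. TGFB without EGF was the single group with high levels. The EGF effect was -2.66 ± 0.11 with TGFB and 0.19 ± 0.11 without, a difference of -2.85 ± 0.15 (SE; adjusted p = 2.24e-11, edgeR quasi-likelihood F-test, Benjamini-Hochberg adjusted). ZNF704, a zinc finger protein, was raised from 3.02, 2.11 and 2.54 to 8.07, 8.53 and 8.82 CPM by EGF alone and lowered from 17.7, 14.8 and 15.03 to 7.32, 6.97 and 7.54 CPM when TGFB was present. AMIGO2, a cell adhesion protein, was raised by EGF in both settings, by 2.38 ± 0.15 with TGFB and 5.25 ± 0.20 without, and TGFB alone had raised it by 4.17. MMP10 and SCG5, a secretory granule chaperone, likewise rose less with TGFB, by 4.44 against 7.10 and 3.91 against 7.76. SCG5 had 4 counts over the 3 PBS libraries in this row, and its difference of -3.84 became -2.52 when its 2 rows were summed. The difference for MMP10, -2.66, was no longer called without replicate 2 or 3 of PBS (-2.22 and -2.52). MMP13 was the sixth, with a difference of -3.67 ± 0.74 (edgeR adjusted p = 7.93e-04).

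LMCD1, a LIM domain cofactor of transcription, was at 1.12, 0.990 and 1.35 CPM in PBS, 2.43, 2.18 and 1.93 in EGF, 2.69, 2.73 and 2.87 in TGFB and 25.5, 24.8 and 21.7 in EGF+TGFB. As with SNAI1, the combination alone was high, and the EGF effect of 3.12 ± 0.13 with TGFB exceeded the 0.92 ± 0.16 without it by 2.20 ± 0.21 (adjusted p = 1.15e-07, edgeR quasi-likelihood F-test, Benjamini-Hochberg adjusted). RETREG1, a receptor for autophagy of the endoplasmic reticulum, fell from 10.6, 10.5 and 11.6 to 3.68, 3.82 and 4.45 CPM with EGF alone and rose from 5.04, 6.64 and 7.05 to 11.9, 11.3 and 11.4 CPM with TGFB. DENND3, an activator of RAB12, turned in the same way, with effects of -1.12 ± 0.13 without and 0.83 ± 0.12 with TGFB. HMOX1, the gene of heme oxygenase 1, fell by 2.52 without TGFB and by 0.63 with it. MAP7D2 fell less with TGFB (-4.34 against -7.08), and TMEM265 was lowered by EGF alone (-2.21) and not called with TGFB (0.58).

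**Figure D5:**
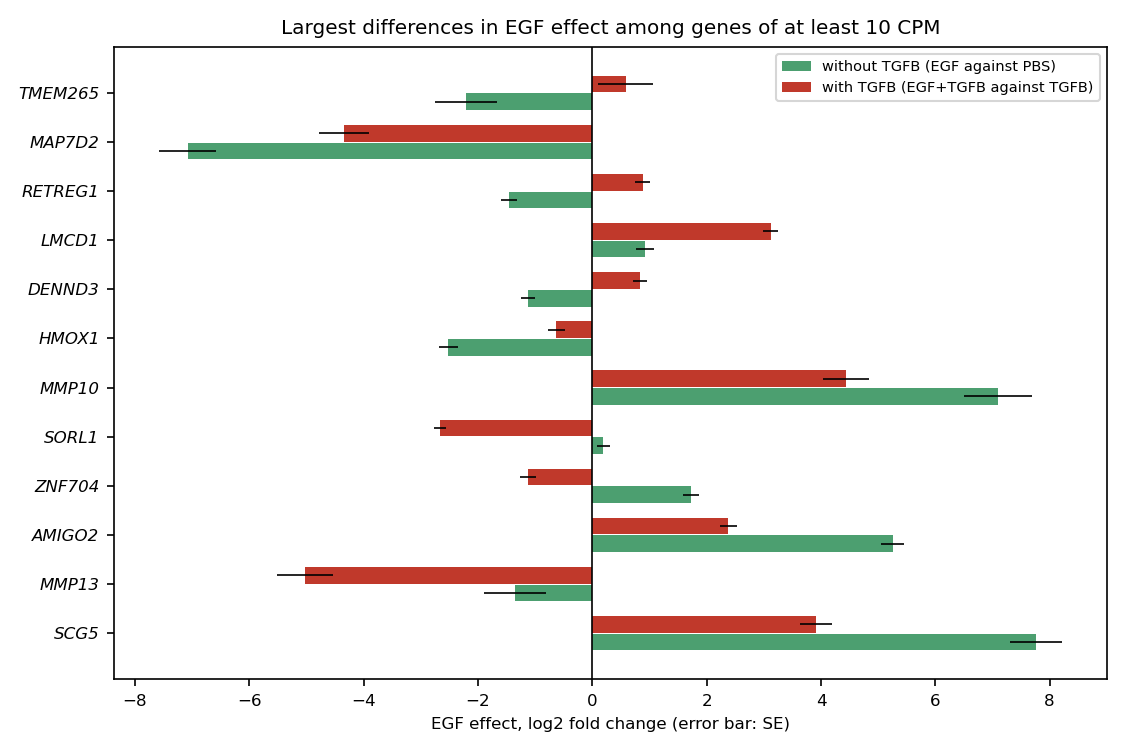
EGF effect as log2 fold change for the 12 genes with the largest called differences, among those with at least 10 CPM in any of the 4 groups, between the effect with TGFB (EGF+TGFB against TGFB) and without it (EGF against PBS). Bars are fitted values and error bars their SE. ZNF704, RETREG1 and DENND3 change direction, and SORL1 falls by 2.66 with TGFB, beside an effect of 0.19 without it.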

How the data were processed

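Messenger RNA of MCF10A cells was sequenced from stranded libraries, per the labels' protocols, in 9 groups of 3 libraries. The authors deposited 1 table of estimated counts for 40487 gene rows. The submitters' processing notes name Trim Galore 0.4.3, cutadapt 1.10, FastQC 0.11.5, kallisto 0.46.2, R 3.5.0 and the build GRCh38.p5 (hg38), without giving the role of each. The notes used here do not say whether counting used strand, and 66 of the 168 genes named have an exon overlapping one of a gene on the opposite strand (GENCODE v44), where reads of both could not then be told apart.

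The estimated counts in the table were whole numbers and were used as such. Rows without a gene symbol held 0.274 to 0.382% of the counts of a library and stayed in the table, with 652 of them tested. Rows with low counts were removed by edgeR's filterByExpr on the 9 groups, leaving 16611, of which 1762 share a symbol with another tested row. A symbol is represented by its row with the most counts. edgeR 4.0.16 (R 4.3.3, limma 3.58.1) fitted all 27 libraries by group, with scaling by the trimmed mean of M-values, a prior count of 0.125 and quasi-likelihood F-tests, with p-values adjusted over all rows by the method of Benjamini and Hochberg. The biological coefficient of variation was 10.1%. The scripts were tested on simulated data. The 4 contrasts were EGF+TGFB against TGFB, EGF against PBS, TGFB against PBS, and the difference between the effects of EGF with and without TGFB. Errors of log2 fold changes are standard errors. Coordinates are from GENCODE v44 on GRCh38, and promoters from RefSeq on GRCh38.p14.

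Genes were named by these rules: the 12 highest and 12 lowest log2 fold changes among called rows without overlap and with a mean of at least 10 CPM in TGFB or EGF+TGFB; in each list, the 4 called members with the largest change, called members against the majority and the least changed member of at least 10 CPM; any member of the receptor, ligand, TGFB pathway, G1 and CDK inhibitor lists; and the 6 highest and 6 lowest called differences in EGF effect. Markers of cell types, CDH1, CDH2 and genes said to be chosen after their values were seen are further exceptions. Some genes that these rules name are not reported here. The lists and rules were chosen with earlier results of these data known. Alternatives were other scaling factors, DESeq2 1.42.0, no filter on low counts, only the groups of the contrast, a replicate block, a prior count of 2, a 2-fold limit, rows summed by symbol, and leaving out each library. Counts of calls within lists under these alternatives were added after seeing the data.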

Additional observations from a re-analysis of the deposited data

Results flagged for a closer look

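A closer look is warranted for the 34 genes named in the text whose EGF effect differed with and without TGFB in the edgeR quasi-likelihood F-test, at an adjusted p under 0.05 and by at least 1 on the log2 scale. Each value given is the log2 effect of EGF with TGFB minus that without it, so that a negative value means a smaller rise or a larger fall when TGFB was present. Over all rows 27.7% had a called difference of any size.

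Genes that EGF raised in both settings, and less with TGFB, included the growth factor genes AREG (-1.48) and EREG (-1.07), the ERK-responsive genes DUSP6 (-1.60) and ETV5 (-1.77), the cell cycle genes CCNE2 (-1.06) and MCM10 (-1.37) and the matrix and adhesion genes CCN2 (-1.68), COL6A3 (-1.72), SERPINE2 (-1.76), TFPI2 (-2.05), MMP10 (-2.66) and AMIGO2 (-2.87). SCG5 also belongs here (-3.84, or -2.52 with its 2 rows summed). The call for MCM10 was lost without any 1 library other than replicate 3 of EGF+TGFB, and that for MMP10 without replicate 2 or 3 of PBS.

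Genes that EGF lowered in both settings, and more with TGFB, were MMP13 (-3.67), ASPRV1 (-2.15), PPARGC1A (-1.93), CXCL14 (-1.51), IL1RN (-1.48), VIPR1 (-1.36) and CALML5 (-1.27). The call for CXCL14 was lost when any 1 library was left out, other than replicate 1 of PBS, with values of -1.41 to -1.70. SORL1 (-2.85) was lowered with TGFB and not called without it.

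The rise was larger with TGFB for HBEGF (1.13), CCBE1 (1.16), LMCD1 (2.20) and SNAI1 (2.39), and TPM1 (1.37), which encodes an actin-binding tropomyosin, rose with TGFB and was not called without it. The fall was smaller with TGFB for FOSL2 (1.03), HMOX1 (1.89) and MAP7D2 (2.73), and TMEM265 (2.79) was lowered without TGFB and not called with it. In 4 genes the direction turned with both effects called: ZNF704 (-2.85) and SPRY1 (-2.27) were raised without TGFB and lowered with it, and RETREG1 (2.34) and DENND3 (1.95) the reverse. Why these genes differ was not tested.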

How the results depend on the processing

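The 168 genes named in the text kept the direction of EGF+TGFB against TGFB under every alternative run. Of 2351 values of single genes, 19 in 6 genes were no longer called and 16 in 8 genes became called. Among the differences in EGF effect no direction turned, and 102 of 1440 values, in 16 of 72 genes, lost their call. The number of genes called was 11099 as reported, 10521 to 10663 with 1 library left out, 10551 with only the groups of the contrast, 10972 by DESeq2, 11345 with a replicate block and 3808 at a 2-fold limit. Upper-quartile scaling called 11127, with 43.9% of them higher in place of 49.0%. The number of differences was 4597, 3798 to 5066 with 1 library left out, 5483 with a replicate block and 665 at a 2-fold limit. The main fit did not pair replicates. Same-numbered libraries of the groups correlated at 0.0337 to 0.0636 in their deviations from the group means, and other pairs at -0.0589 to -0.00239. Every library thus correlated best with its own number, a weak pattern by replicate that the main fit leaves out. With a replicate block the EGF effect was called lower with TGFB for 32 DNA replication genes in place of 27. For mitosis genes it was 12 in place of 9. Without a filter on low counts the number fell to 25 for DNA replication genes and 2 for mitosis genes.

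Some list medians moved by more than the replicate spread. With upper-quartile scaling they were -0.48 for EGF receptors, 0.93 for EGF ligands, 1.14 for ERK feedback, 0.67 for glycolysis and 0.89 for integrins. EGF ligands had 1.04 without a filter on low counts, and proteases 1.37 with only the groups of the contrast and 1.41 with a prior count of 2. Leaving out 1 library gave 0.89 to 1.08 for EGF ligands, -2.20 to -1.97 for FOXO genes, 0.76 to 0.94 for mesenchymal genes, 0.94 to 1.01 for integrins and 1.59 to 1.88 for chemokines. Median differences in EGF effect were -0.047 to 0.32 for EGF ligands and -0.58 to -0.32 for AP-1, EGR and ETS factors. The causes were not tested. Depth limits genes under about 1 CPM, such as TSLP, SPRY1 in EGF+TGFB, and SNAI1 in PBS, EGF and TGFB. It also limits genes with libraries at 0 counts.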
